A study of Caenorhabditis elegans with 2 samples.

Results

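Of the 4384 MADF-6 peaks that the authors kept in their conservative list, 284 (6.48%) had their summit inside a protein-coding exon and over 500 bp from every annotated gene start. The members were chosen by position alone: the summit lay in coding sequence (CDS) on a nuclear chromosome, and no 5′ end of a protein-coding, tRNA, snRNA or snoRNA gene lay within 500 bp. Another 302 coding summits lay within 500 bp of such an end. At the limit itself stood the summits in fkb-6 (503 bp from the nearest 5′ end, signal 76.2) and spp-1 (504 bp, signal 90.4) on the inside, and those in mct-5 (485 bp, signal 87.2) and ZK1236.5 (493 bp, signal 95.3) on the outside. The other peaks fell within 500 bp of a gene start (2519), or beyond it in introns (497), in UTR exons (192) or between genes (892).

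The data are chromatin immunoprecipitation sequencing (ChIP-seq) of whole Caenorhabditis elegans, strain RW12237, in which CRISPR placed the tags TY1, EGFP and 3xFLAG in the native madf-6 gene (allele st12237). Larvae were synchronised by bleaching and L1 starvation, young adults were taken at 63 h, and sonicated chromatin was recovered with an antibody against GFP. There was 1 group with 2 biological replicates, every animal carried the tagged gene, and no untagged strain was analysed here. Whole animals mix all tissues, so a weak summit and a summit bound in few cells cannot be told apart. The files give peaks without read counts, so the depth of each replicate is unknown.

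MADF domains are DNA-binding folds related to the Myb domain, and factors of this kind are best known at promoters. Coding exons are richer in G and C than the introns and the intergenic sequence of this species. Its genes are compact, many are trans-spliced or share an operon, and the 3′ end of one gene often lies close to its neighbour. The coding sequence that the rule allowed amounted to 19.1 Mb, or 19.1% of the genome.

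The sequences at 5 of the strongest members found in both replicates are shown as examples. They hold no UTR bases and leave out lmd-2, D2030.12 and F58A4.6, which had higher signals than chmp-7. Each window reaches 50 bp to each side of a summit, was read from the NCBI RefSeq genome of build WBcel235, and runs 5′ to 3′ on the strand of the host gene, with coding bases in capitals. The windows of afmd-2, pqn-48 and F31E3.12 crossed a splice site, and those of chmp-7 and dos-3 were wholly coding.
afmd-2, chrIV:13510197-13510297, plus strand: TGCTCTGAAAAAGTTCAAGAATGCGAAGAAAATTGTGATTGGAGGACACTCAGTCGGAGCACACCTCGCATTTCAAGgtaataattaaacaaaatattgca
chmp-7, chrII:9056341-9056441, plus strand: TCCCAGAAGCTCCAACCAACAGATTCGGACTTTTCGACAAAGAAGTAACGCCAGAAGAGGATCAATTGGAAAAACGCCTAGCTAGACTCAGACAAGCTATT
pqn-48, chrII:4042807-4042907, plus strand: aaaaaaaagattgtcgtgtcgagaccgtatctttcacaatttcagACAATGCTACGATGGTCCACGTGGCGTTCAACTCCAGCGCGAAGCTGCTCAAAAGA
F31E3.12, chrIII:6969883-6969983, plus strand: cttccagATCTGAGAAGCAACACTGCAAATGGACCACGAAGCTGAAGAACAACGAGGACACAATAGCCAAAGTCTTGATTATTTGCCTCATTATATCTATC
dos-3, chrIII:835889-835989, minus strand: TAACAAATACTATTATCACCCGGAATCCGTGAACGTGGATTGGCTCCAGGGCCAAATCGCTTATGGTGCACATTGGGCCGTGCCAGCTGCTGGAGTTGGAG

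Word content was compared with the 4100 other summits. On those other summits, the 8-base word in largest excess over flanking windows was AAAGGCGC, searched on both strands (GCGCCTTT on the other). Because AAAGGCGC was picked for its excess there, a lower share at members was favoured in advance. The word stood within 50 bp of 8.71% of all summits in the list and of 2 of the 284 coding exon summits (0.704%, interval 0.193 to 2.53), in acbp-6 and C16A11.4. Those windows are shown with the word in capitals, on the host's strand, beside the strongest intronic and the strongest intergenic summit that carried it, on the plus strand. The intronic window holds a further copy near its end, on the other strand, which is left in lower case.
acbp-6, chrII:11972426-11972526, minus strand: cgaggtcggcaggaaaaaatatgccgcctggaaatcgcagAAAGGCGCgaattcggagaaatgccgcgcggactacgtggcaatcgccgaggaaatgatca
C16A11.4, chrII:4228558-4228658, plus strand: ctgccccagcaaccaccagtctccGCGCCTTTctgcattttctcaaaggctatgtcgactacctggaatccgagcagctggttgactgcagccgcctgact
intron near C44B9.2, chrIII:10877689-10877789, plus strand: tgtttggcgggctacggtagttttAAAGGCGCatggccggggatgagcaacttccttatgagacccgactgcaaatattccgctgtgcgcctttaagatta
intergenic near fat-1, chrIV:13311477-13311577, plus strand: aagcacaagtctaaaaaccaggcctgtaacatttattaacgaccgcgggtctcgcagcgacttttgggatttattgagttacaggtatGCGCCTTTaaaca

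Coding exon summits were weak. Their median signal, the authors' enrichment value within the conservative list, was 90.0 (quartiles 77.7 and 119.7, range 3.35 to 467.9), against 148.7 over all peaks. The median was 173.9 within 500 bp of a gene start, 156.0 between genes, 117.4 in introns and 108.6 in UTR exons. Only 46 of the 284 (16.2%) reached the list's median. Ranked by falling signal, the list held no coding exon summit among its top 438 peaks, and such summits made up 15.1% of its bottom 438. The same shift appeared in each replicate's own thresholded list, where the median of the coding exon summits was 62.1% of the list's median in replicate 1 and 59.9% in replicate 2.

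**Figure D1:**
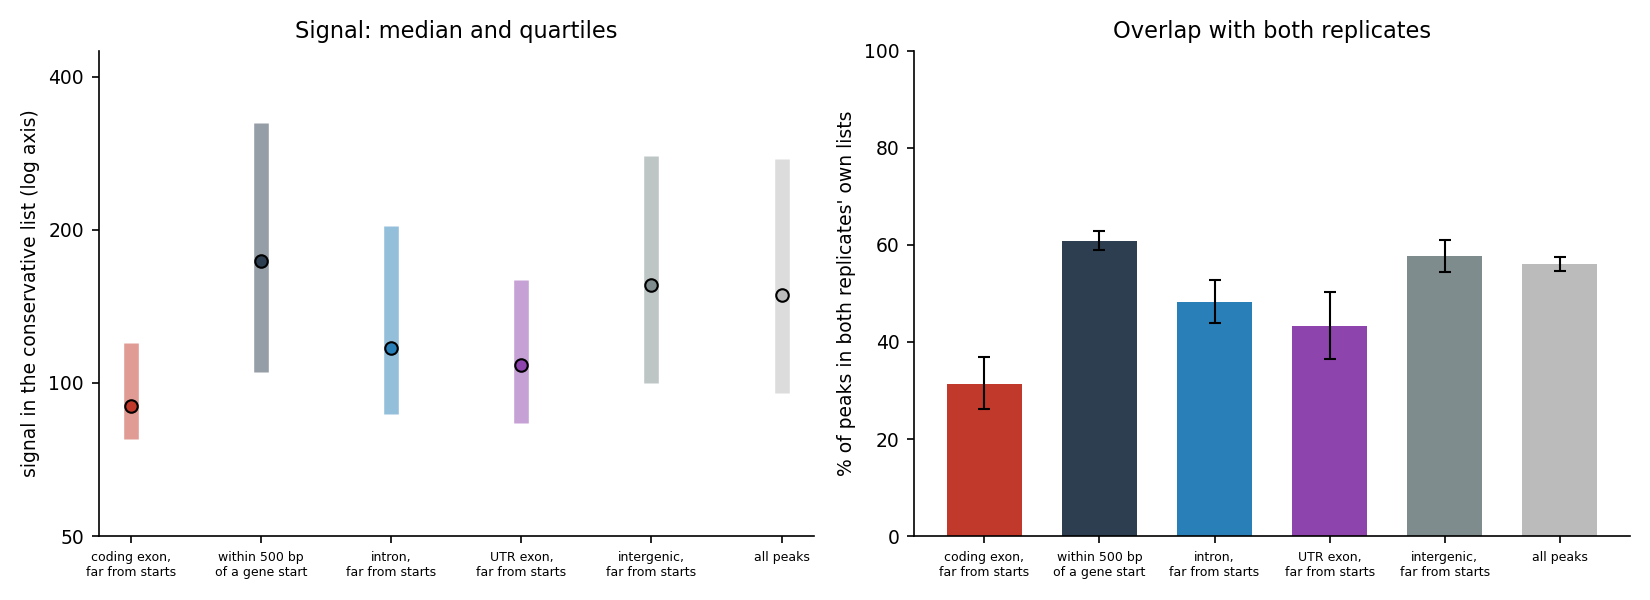
Left, median (point) and quartiles (bar) of the signal in the conservative list, on a log axis, for summits by location; right, percentage of peaks that overlapped a thresholded peak of both replicates, with 95% Wilson intervals. Coding exon summits had the lowest median, 90.0, and the lowest overlap, 31.3%.

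The rule applied to each replicate's own thresholded list gave 125 summits in replicate 1 and 326 in replicate 2. Of the 284, 105 overlapped a thresholded peak of replicate 1 (37.0%, against 59.3% of all peaks) and 180 one of replicate 2 (63.4%, against 83.3%). Both replicates held 89 (31.3%, interval 26.2 to 37.0), against 56.1% of all peaks, replicate 1 alone held 16, replicate 2 alone 91 and neither 88. This low share went with the low signal: below the list's median 19.3% of coding exon summits were in both replicates (46 of 238, interval 14.8 to 24.8), against 21.9% of summits near gene starts (interval 19.5 to 24.5). At or above the median the shares were 93.5% (43 of 46, interval 82.5 to 97.8) and 90.1% (interval 88.4 to 91.5). The 23 members with a stronger summit within 220 bp went the other way. Their median signal was 11.5, and 43.5% were in both replicates (interval 25.6 to 63.2). An overlap of 1 bp was enough, so such a call could count through a replicate's peak at its neighbour. Intervals are 95% Wilson intervals, cover counting error only and treat peaks as independent.

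Most member peaks had the same width. Of the 284, 234 (82.4%) were exactly 320 bp wide, 38 were narrower and 12 wider. Of all 4384 peaks, 57.3% had that width, 1696 were narrower and 174 wider. Width also followed signal, since 93.7% of the members below the list's median and 23.9% of those above it were 320 bp wide. A typical peak reached out of the exon: the median share of its bases that were coding was 70.9%, and 46 peaks lay wholly in coding sequence.

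A stronger summit was often close by. The median distance to the nearest other summit was 1306 bp, against 2188 bp over all peaks. A stronger summit lay within 2000 bp of 134 members (47.2%), against 26.96% of all peaks. The share was 38.5% for UTR exon summits, 27.6% for intronic ones, 24.7% near gene starts and 24.2% between genes. More peaks are stronger than a weak summit than a strong one, and the shares were not compared at equal signal. For 56 members another summit lay within 220 bp. The peak intervals overlapped for 53 of the 56, and 9 members shared their whole interval with another call of the list. For 23 of the 56 that neighbour was the stronger, and the median signal of those 23 members was 11.5. Of the 20 members with a signal under 50, 19 were such weaker neighbours. Without the 23, the other 261 members had a median of 92.0.

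In each replicate's ranked list, made before thresholding, a peak covered the summit for 263 members in replicate 1 and for 262 in replicate 2. Their median ranks were 3496 and 4092, and over all conservative peaks 2192 and 2185. The 2 signals of a member, each on its own list's scale, were related by a Spearman rho of 0.49 across the 251 members with both values, and by 0.85 across 4040 peaks of all locations. These are descriptions of sites that share their libraries. The middle 50% of the members had signals from 77.7 to 119.7, and that of all peaks from 95.6 to 275.7, and the part of this narrower range in the lower rho was not tested. Coding exons supplied 19104 of the 63808 peaks (29.9%) of the ranked list that combines the replicates, but 1.49% of them are in the conservative list, against 6.87% of all ranked peaks.

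**Figure D2:**
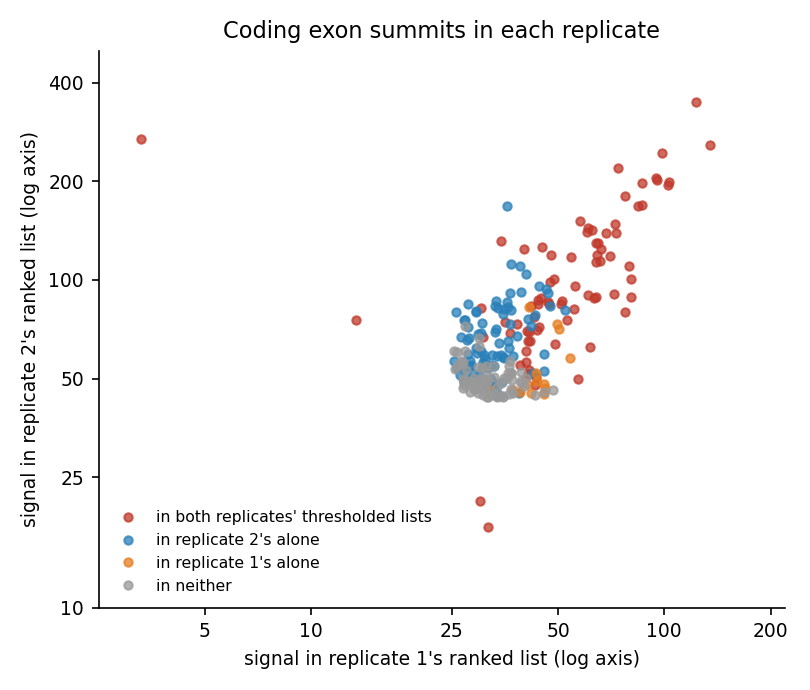
Signal of each coding exon summit in the ranked list of replicate 1 (x) and of replicate 2 (y), both on log axes, for the 251 members with a covering peak in both; colours show which thresholded lists held the peak. Most points lie below a signal of 50 in replicate 1 and of 100 in replicate 2, and lmd-2 (123.0 and 349.6) and D2030.12 (134.9 and 257.8) are highest in the upper right.

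The summits gathered at the 3′ ends of their genes. Of the 284, 165 (58.1%, interval 52.3 to 63.7) lay within 500 bp of the host's annotated 3′ end, against 19.2% of the coding bases that the rule allowed. The fullest 100 bp step, from 100 to 200 bp inside the 3′ end, held 72 summits (25.4%) and 4.08% of the allowed bases. Beyond 500 bp every step up to 1000 bp held fewer summits than its share of bases. Among the 125 summits of replicate 1's list the share was 64.0%, and among the 326 of replicate 2's it was 49.7%.

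By exon, 159 members (56.0%, interval 50.2 to 61.6) lay in the last coding exon, which holds 16.1% of the allowed bases. Internal exons held 117 (41.2%, against 82.1% of bases), first coding exons 7 and an undivided coding sequence, that of fbxb-14, held 1. The last 10% of the coding sequence held 100 summits (35.2%, against 11.2% of bases), and the median summit stood 82.7% of the way from start to stop codon. The exons that carried summits were not long: their median length was 239 bp, against 276 bp for the exon around an allowed base.

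**Figure D3:**
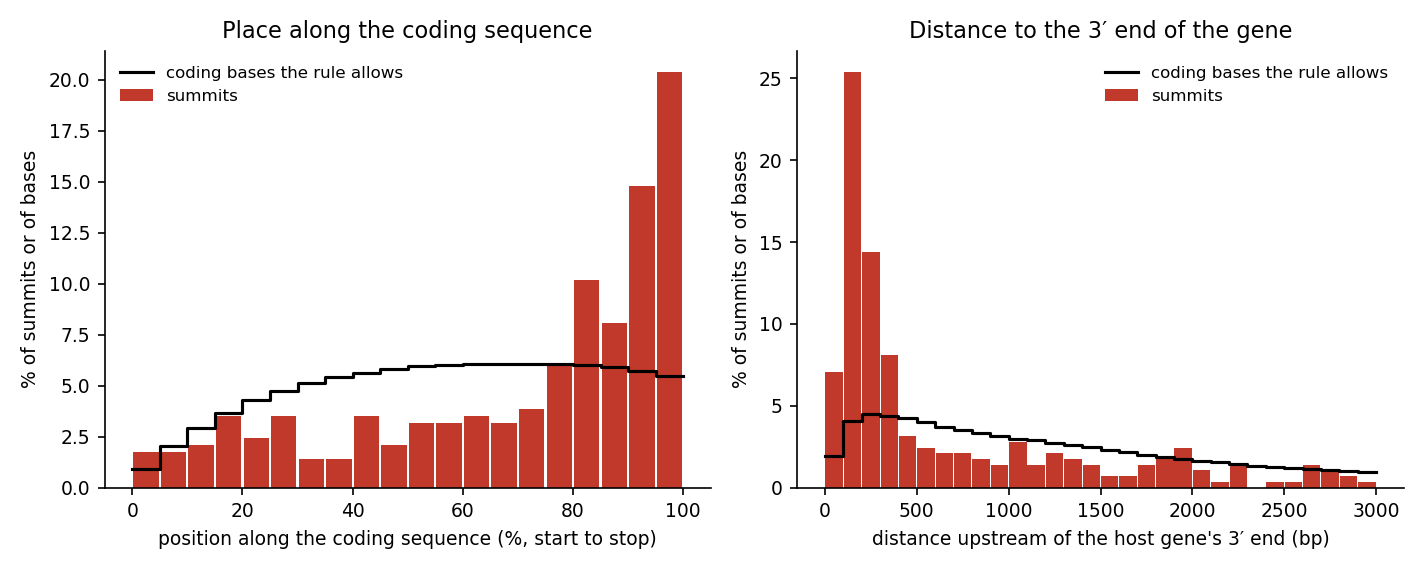
Left, position of coding exon summits along the host's coding sequence in steps of 5%; right, distance of the summit upstream of the host's annotated 3′ end in steps of 100 bp, up to 3000 bp. Bars are percentages of the 284 summits and the black line is the percentage of allowed coding bases in the same step. The bars rise above the line in the first 5% (5 summits) and the last 20% of the coding sequence. On the right they do so in the last 400 bp of the gene. Further out, they also do so in the steps from 1900 bp (2.46% against 1.78%) and 2600 bp (1.41% against 1.14%).

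The stronger and better shared the summit, the more often it lay at a 3′ end. Within 500 bp of the host's 3′ end lay 37 of the 46 members at or above the list's median signal (80.4%, interval 66.8 to 89.3) and 128 of the 238 below it (53.8%, interval 47.4 to 60.0). The share was 76.4% (68 of 89, interval 66.6 to 84.0) for members in both replicates and 39.8% (35 of 88, interval 30.2 to 50.2) for those in neither. Seen from the other side, 41.2% of the 3′ members (interval 34.0 to 48.8) and 17.6% of the 119 others (interval 11.8 to 25.5) were in both replicates, with median signals of 98.1 and 83.2. Members in neither replicate were also above the 19.2% of allowed bases.

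Coding exon peaks of the ranked list outside the conservative list did not show this place. Of 18820 such peaks, 3068 (16.3%, interval 15.8 to 16.8) lay within 500 bp of the 3′ end of any protein-coding gene, against 182 of the 284 members (64.1%, interval 58.4 to 69.4) and 20.0% of allowed bases. Without those that also stood, at the same coordinates, in the less strict list, it was 16.1% of 18629. Members were not alone in it. Intergenic summits over 500 bp from gene starts lay near a 3′ end in 45.2% of cases (interval 41.9 to 48.5), against 14.1% of the bases of that kind, and UTR exon summits in 78.6% against 71.1%. For introns the shares were 10.7% and 6.37%.

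**Figure D4:**
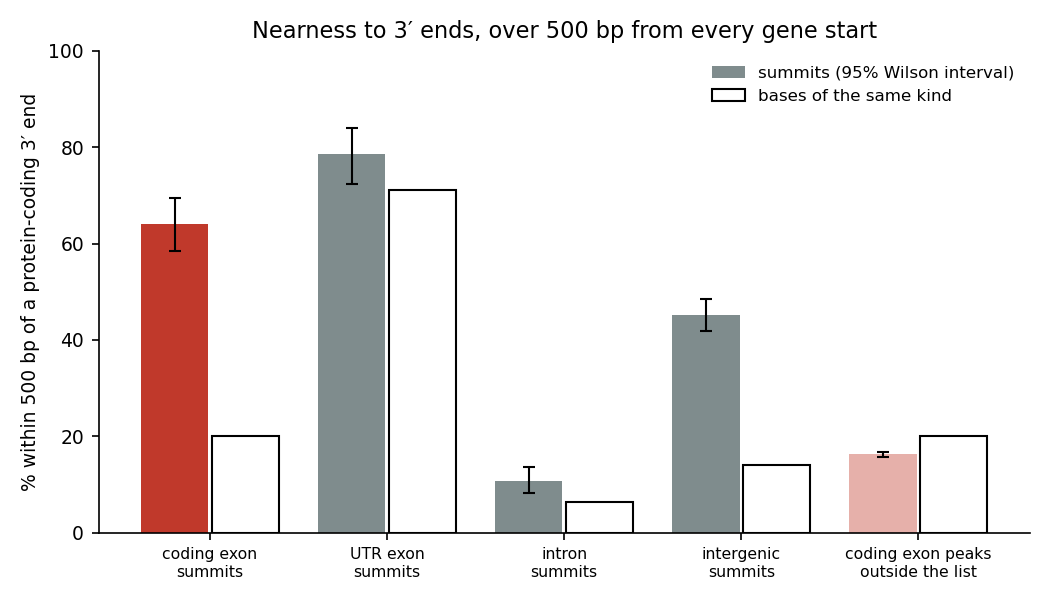
Percentage of summits within 500 bp of the 3′ end of any protein-coding gene (filled bars, 95% Wilson intervals) and of the bases of the same kind (open bars), all over 500 bp from gene starts. Coding exon summits reach 64.1% against 20.0% of bases, and coding exon peaks outside the conservative list 16.3%.

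Past the 3′ end, the neighbouring gene was often bound. A gene counts as bound here when a conservative summit lies within 500 bp of its own 5′ end. Among 156 host genes with a summit near their 3′ end, the next gene downstream was bound in 63 (40.4%), against 10.6% of 16114 genes with allowed bases near their 3′ end and 32.7% of the 107 other hosts. The next gene ran towards the host in 77 of the 156 (49.4%, interval 41.6 to 57.1), against 39.6% of all such genes. It did so for 31.8% of the other hosts (interval 23.7 to 41.1). The median gap to it was 2316 bp, against 1146 bp for all such genes and 684 bp for the other hosts. The rule removes 3′ ends that lie within 500 bp of a downstream start, and the figure for all genes was taken over the same allowed bases.

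The 284 summits lay in 263 host genes, of which 243 held 1 summit, 19 held 2 and hsp-110 held 3. Of the hosts, 88 (33.5%, interval 28.0 to 39.4) were also bound at their own start, against 12.3% of all protein-coding genes and 12.2% of those with allowed bases. For 121 members (42.6%, interval 37.0 to 48.4) the nearest gene start belonged to a gene other than the host, against 35.1% of allowed bases. For 128 (45.1%, interval 39.4 to 50.9) the nearest start carried a summit, against 14.1% of allowed bases. Starts that the rule does not use were close to some: 38 members (13.4%, interval 9.91 to 17.8) lay within 500 bp of the 5′ end of an annotated transcript of such a gene, against 7.17% of allowed bases. Another RNA gene began within 500 bp of 9 members (3.17%, against 5.71% of allowed bases), with piRNA genes at 4, ncRNA genes at 4 and an antisense RNA gene at 1.

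The strongest member lay in the last exon of lmd-2, which encodes a LysM domain protein (WBGene00015008, chromosome I, 4644642 to 4645659). Its summit at 4645549, 110 bp before the 3′ end, had a signal of 467.9 and rank 548 of the list. It ranked 721 in replicate 1 (signal 123.0) and 502 in replicate 2 (signal 349.6), and lmd-2 had no summit at its own start. Next came D2030.12 (chromosome I, summit at 7585253, signal 399.7), again in the last exon, 87 bp before the 3′ end. It ranked 634 in replicate 1 and 763 in replicate 2. The convergent gene on its other side is prg-1, which encodes the Piwi Argonaute of the germ line and holds a weak member of its own 1476 bp away (signal 68.6, in neither replicate).

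The third and the fifth by signal differed in their place. The summit in afmd-2, an arylformamidase gene (WBGene00012866, chromosome IV, 13509224 to 13513433), was in exon 3 of 5, 3186 bp before the 3′ end, with a signal of 329.8, and a summit of signal 1602 stood 2130 bp away. Its ranks were 978 in replicate 1 and 813 in replicate 2. The summit in chmp-7, whose human counterpart acts in the ESCRT-III membrane machinery (WBGene00011976, chromosome II, 9054972 to 9056504), was in the last exon, 113 bp before the 3′ end, with a signal of 316.4. It ranked 917 in replicate 1 and 1082 in replicate 2, and its nearest gene start was that of rpl-32, a ribosomal protein gene, 694 bp away.

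On chromosome III, F58A4.6 and hcp-3 meet at their 3′ ends inside a single peak interval of 452 bp that the list gives with a summit in each. The summit in F58A4.6 had a signal of 321.3, 58 bp before its 3′ end. The summit in hcp-3, the gene of the centromeric histone H3 variant, had 72.7, 175 bp before the 3′ end and 207 bp from the other. The F58A4.6 summit ranked 910 in replicate 1 and 1056 in replicate 2, while the hcp-3 summit ranked 4760 and 30528. The nearest stronger summit stood 1855 bp from that in F58A4.6, with a signal of 3872.

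Of the 25 strongest members in both replicates, with signals from 188.6 to 467.9, 19 lay in the last coding exon, 20 within 500 bp of the host's 3′ end, and 8 hosts were bound at their own start. None of the 25 peaks was 320 bp wide. In the last exon, near the 3′ end, were pqn-48 (a glutamine and asparagine rich protein, signal 300.1, 213 bp), F31E3.12 (signal 297.0, 169 bp), dos-3 (signal 278.2, 188 bp) and C36E8.4 (signal 274.7, 81 bp). The same place was taken by summits in agl-1, the glycogen debranching enzyme gene (signal 240.9, 231 bp), dhcr-7, named for a sterol reductase (signal 231.8, 226 bp), fbxa-199, an F-box gene (signal 228.6, 20 bp), and best-18, a bestrophin channel gene (signal 196.7, 159 bp). C28D4.10, F25B5.5, F17C11.22, R12E2.13, K12C11.1 and F10E7.9 were also of this kind, with signals between 193.1 and 215.9.

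Of the remaining strong members, 3 lay near the front or the middle of their genes. F25H2.12 (signal 268.3) was in exon 1 of 9, 782 bp from the gene's start with the 5′ end of another of its transcripts within 500 bp. The summit in fubl-1 (signal 239.6) was in exon 2 of 6 and 239 bp from a transcript's 5′ end. That in xpf-1, the nuclease subunit gene of nucleotide excision repair, was in exon 5 of 12 (signal 257.9), 548 bp from the start of inos-1. In lgc-31, a ligand-gated ion channel gene, the summit was in exon 13 of 14 (signal 277.9), 356 bp before the 3′ end and 955 bp from the start of rpl-38.

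Both members with AAAGGCGC were among these 25. In acbp-6, an acyl-CoA binding protein gene (WBGene00012457, chromosome II, 11972313 to 11973732), the summit at 11972476 was in the last exon, 163 bp before the 3′ end, with a signal of 284.9. It ranked 1028 in replicate 1 (signal 95.2) and 1033 in replicate 2 (signal 202.0). In C16A11.4 (WBGene00015817, chromosome II, 4227046 to 4229157) the summit at 4228608 was in exon 3 of 4 with a signal of 188.6, ranks of 1635 and 1757, and a stronger summit 701 bp away.

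Across locations, AAAGGCGC was in 11.5% of intronic, 10.8% of intergenic, 8.85% of start and 2.08% of UTR exon summit windows. In flanks 300 bp to each side it was in 1.23% of member windows and 0.635% of start windows. The list's median signal divides each location's summits. Below the list's median 0 of 238 members held it (Wilson upper bound 1.59%), against 3.71% of start summits, 7.40% of intronic ones and 0.730% of UTR exon ones (interval 0.129 to 4.02). At or above the median it was in 2 of 46 members (4.35%, interval 1.20 to 14.5), 12.7% of start summits, 18.3% of intronic ones and 5.45% of UTR exon ones. The members' interval there includes the share at starts. The shorter words GGCGCA and AAGGCGC, picked the same way, were in 1.41% and 0.704% of member windows and in 14.1% and 10.7% of all summit windows. Picking on the other summits favours a lower share at members for each of these words.

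Narrower windows of 25 bp to each side picked another word, GCGAGACC (GGTCTCGC on the other strand). Within 50 bp of the summit it was in 6.16% of all summits, in 7.38% of those near starts and in 0 of 284 members (Wilson upper bound 1.33%). Its 7-base core CGAGACC was in 4 members (1.41%, interval 0.549 to 3.56), those of pqn-48, dld-1, F54E7.9 and ltah-1.1, against 10.5% of all summits and 2.11% of member flanks. In the pqn-48 window shown above it stands in the intron, before the splice site. These words too were picked on the other summits, which favours a lower share at members. They are letters in a window, and a window without them says nothing of the factor.

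Member summits were richer in GC than their flanks. The rule puts every member summit in coding sequence, but the flanks could lie outside it. The part of the difference that follows from the rule was not tested. Windows of 50 bp to each side of member summits had 45.5% ± 6.66 GC (SD, n = 284) and their flanks 37.0% ± 7.54, a difference of 8.48 percentage points that was positive in 234 of 284. The difference was 9.24 at gene starts, 8.37 between genes, 6.92 in introns and 1.95 in UTR exons, where it was positive in 109 of 192. It was 1.84 ± 6.35 (SD) for the 83 members with coding windows at the summit and in a flank (47.9% against 46.0%), positive in 49 of 83. Allowed coding bases had 43.0% GC.

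**Figure D5:**
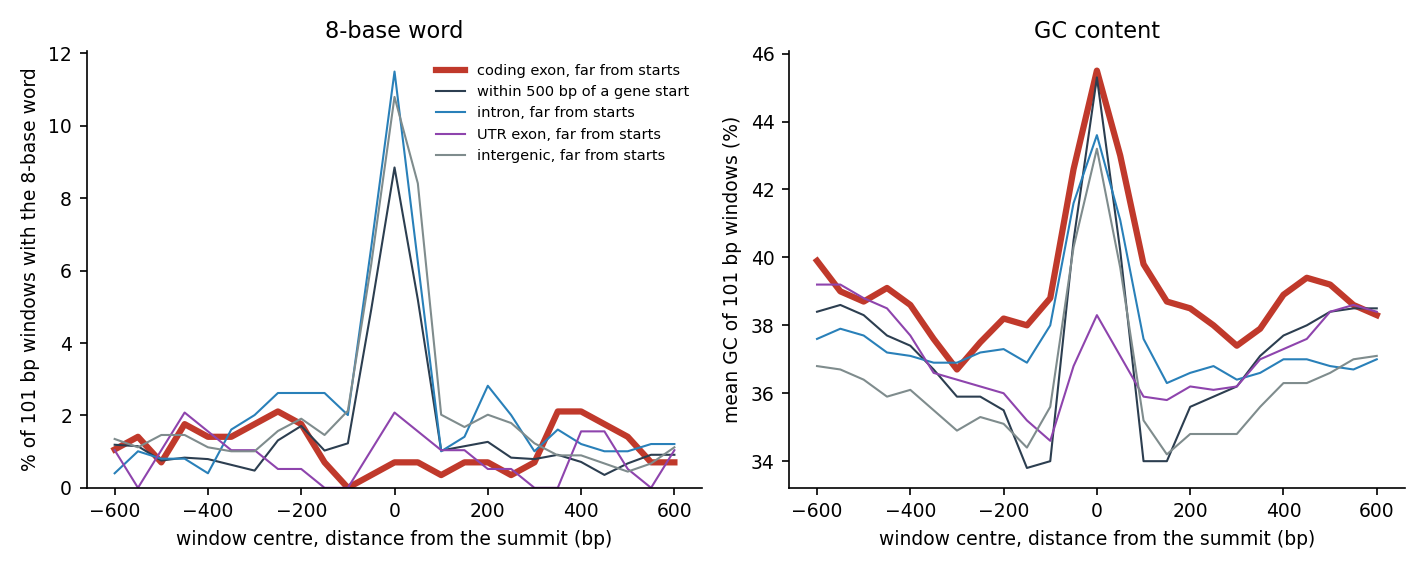
Percentage of windows (50 bp to each side of their centre) that hold the 8-base word (left) and their mean GC content (right) by distance of the window's centre from the summit, for summits by location. The word rises to 11.5% at intronic summits. At coding exon summits (thick red line) it is at 0.704%, and in the windows around them it varies between 0% and 2.11%. The GC content of coding exon summits rises to 45.5%.

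In 14 of the 20 hosts with several members, 2 of them stood 190 to 220 bp apart, and in 13 of the 14 the peak intervals overlapped. The weaker call of a pair had a far lower signal in dos-3 (278.2 and 43.0), R12E2.13 (199.0 and 4.19), tdc-1, the tyrosine decarboxylase gene (182.6 and 11.5), and anmt-1 (173.5 and 7.16). The pairs of acbp-6 (284.9 and 99.5), grl-10 (122.9 and 66.4) and hsp-110 (61.1 and 37.4) were less unequal. Those of lgc-31, ints-11 (an Integrator subunit gene), alh-4 (an aldehyde dehydrogenase gene), W09G12.6, spo-11 (the nuclease gene that starts meiotic recombination), pde-2 and ltah-1.1 had a weaker call between 4.06 and 37.7. For dos-3, no ranked peak of replicate 1 covered the stronger summit, which ranked 1180 in replicate 2.

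Separate summits on one gene were few. In eel-1, a HECT ubiquitin ligase gene on chromosome IV, members in exons 2 and 5 of 15 had signals of 106.4 and 73.8. In pam-1, an aminopeptidase gene, members in exons 2 and 6 of 8 had 93.3 and 82.1, in hrpa-1, an hnRNP gene, those in exons 2 and 3 had 186.1 and 98.6, and in maph-1.3 those in exons 2 and 4 had 135.1 and 101.9. In W09D10.4 they had 88.7 and 80.8. In hsp-90, the gene of the cytosolic chaperone, members in exons 2 and 3 of 4 had 79.8 and 91.0, and both were in replicate 2 alone.

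By function, 15 of 21 gene lists held any host, a count that depends on the size of the lists. The share to set beside each list's own is 1.46%, that of hosts among the 18019 genes with allowed bases. Genes of P granules and small RNA pathways held 5 hosts among 35 (14.3%, interval 6.26 to 29.4). They were mip-2 and deps-1 (P granule proteins, signals 83.6 and 81.0), mut-16 (the scaffold of Mutator foci, 69.1), prg-1 and meg-2 (a germ granule protein, 53.5). All 5 were below the list's median, 0 were in both replicates, and deps-1 was in replicate 2 alone.

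Chaperone genes held 4 hosts among 57 (7.02%, interval 2.76 to 16.7): dnj-5 (signal 105.5), hsp-12.2 (96.9), hsp-90 and hsp-110 (73.8 at its strongest). All 4 were absent from replicate 1's thresholded list. Among 23 kinesin and dynein names, 3 were hosts: klp-7, a microtubule-depolymerising kinesin gene (signal 156.3, in both replicates), klp-18, a meiotic spindle kinesin gene (58.2, in neither), and dhcr-7, which only shares the letters of the name. Replication and division genes gave 3 of 81: hcp-6, a condensin subunit gene (164.2, last exon, in both replicates), div-1, a DNA polymerase alpha subunit gene (84.5, in neither), and hcp-3.

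Maternal and oocyte genes gave 2 of 44, pie-1, which encodes a zinc finger protein of the germ lineage (signal 169.5, last exon, in both replicates), and pqn-59 (64.4). Ribosomal protein genes gave 2 of 44: rpl-19 (signal 105.3) and rpl-7A, whose call had a signal of 5.57 beside one of 402.5 at 201 bp. The summit window of rpl-7A is the only member window that occurs again in the genome. Of large families, chemoreceptors had 3 hosts of 1356 (srt-47, srd-1 and srz-83), 0.221% with an interval from 0.0753 to 0.648, below the 1.46% of all genes with allowed bases. F-box and MATH genes had 2 of 391 (fbxa-199 and fbxb-14, interval 0.140 to 1.85) and nuclear receptors 2 of 268 (nhr-61 and nhr-88, interval 0.205 to 2.68), and both intervals include 1.46%. Translation factors (eef-1B.2, of 38), aminoacyl-tRNA synthetases (tars-1, of 32), the proteasome (rpt-4, of 33), the nuclear pore (npp-10, of 26), C-type lectins (clec-142, of 238) and solute carriers and ABC transporters (glt-6, of 158) had 1 host each. Core histones, splicing factors, vitellogenins, cuticle collagens, body wall muscle and chromatin genes had 0, of 5, 36, 7, 193, 20 and 30 genes with allowed bases. Of the tagged protein's own family, madf-10 (156.2, replicate 2 alone) and madf-1 (152.4, both replicates) were hosts. Each had its summit in the last exon, as did 56.0% of all members. The genes of this family with allowed bases were not counted, so no share can be set beside 1.46%. Both madf genes, the single hosts of a list and the 4 members with CGAGACC were named after their values were seen.

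By chromosome, members per Mb of allowed coding sequence numbered 22.7 on III, 22.5 on II, 18.2 on IV, 14.9 on I, 10.2 on V and 1.73 on X. All summits of the list per Mb of chromosome numbered 68.5, 54.7, 44.5, 59.6, 34.7 and 11.3 in that order. The 5 members on X lay in F21G4.1, dhs-25, gpd-3, meg-2 and acs-17, had signals from 5.75 to 96.4, and 0 of them were in both replicates, against 89 of the 279 on autosomes.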

How the data were processed

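Peak lists were deposited on ce11, which is WBcel235. The score that the authors deposited scales the irreproducible discovery rate of a peak and ran from 830 to 1000 in the conservative list. The signal is the authors' enrichment value, deposited with each peak and on a scale of its own in each list, so it was used only within a list. Summits are the deposited offset from the peak start. Both replicates were called against a common control library, as the deposited text says. The aligner and caller were not given in the sources used here. Unnamed further columns of the ranked lists were not used.

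The conservative list (4384 peaks), the less strict list (5060), the replicates' thresholded lists (2803 and 4519) and ranked lists (57453, 65847 and, for both together, 63808) were read with Python 3.11.15 and numpy 2.4.6. Genes came from Ensembl release 115. A member's host is described by its longest coding transcript that holds the summit. Peaks sharing 1 bp counted as overlapping. Each summit was given the strongest ranked peak of each replicate that covers it. Allowed bases are coding bases that pass the same rule.

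With 1 group no test was run: shares carry 95% Wilson intervals. The named genes are hosts of the 25 strongest members in both replicates, hosts with several members, up to 4 hosts of each list with 2 or more, and summits at the limit. Members and lists were chosen with earlier results of these data known. Distances to 3′ ends, downstream genes, peak widths, close pairs, nearest starts, splits by signal, the second word and the alternative of 1 member per 220 bp were added after values were seen. The rule and word search were tested on simulated data.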

Additional observations from a re-analysis of the deposited data

How the results depend on the processing

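The share within 500 bp of the host's 3′ end stayed above 19.2% under each of 9 other settings. That 19.2% is the share of bases that the main rule allows. No matching share was computed for the settings that change the allowed bases. The lowest share of summits, 37.0%, came from the 46 peaks wholly inside coding sequence, and the highest, 80.4%, from the 46 at or above the list's median. The last-exon share was 46.5% in the less strict list, 49.6% at a limit of 250 bp, 39.1% for whole peaks and 71.7% above the median. For whole peaks and above the median alike the density was 2.402 per Mb. It was 22.04 in the less strict list and 16.7 at 250 bp. The share in both replicates was 21.3% in the less strict list, 93.5% above the median and 26.1% when summits had to lie within 100 bp. The median signal was 65.1%, 58.4% and 132.0% of its list's median in the less strict list, for whole peaks and above the median, against 60.6%. Above the median this value could not fall below the list's median, because the members were chosen by signal. A covering ranked peak in both replicates was found for 88.4% of members, 97.8% above the median and 92.2% with 1 member per 220 bp. Hosts bound at their start were 46.9% at a limit of 250 bp, and 21.3% and 49.8% with 250 and 1000 bp at the start. At the limit of 250 bp and with 1000 bp at the start, a member can itself be the summit counted at its host's start. Part of both rises is therefore fixed in advance. Transcript starts lay near 32.2% at a limit of 250 bp. That limit admits summits 250 to 500 bp from a gene start, which can meet this measure through that same start. The rise is therefore partly fixed in advance. Other RNA genes lay near 0% of whole peaks and 6.52% above the median. The 8-base word was in 0% of whole peaks, 0% in 25 bp windows and 4.35% above the median. The GC difference was 4.37 above the median, 10.7 and 5.02 in windows of 25 and 100 bp, 6.50 with flanks 500 bp away and 1.84 in coding windows. The repeated window was 0% at 1000 bp, for whole peaks and above the median. Taking each replicate's list alone gave 125 to 326 members, last-exon shares of 48.8% to 60.8%, densities of 6.53 to 17.0, GC differences of 6.27 to 8.19 and repeated windows of 0% to 0.800%. Apart from what a setting fixes in advance, the cause of these shifts was not tested. No paired analysis was possible because there is 1 group. Depth is unknown, which limits what can be said of weak summits.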
